A study of Mus musculus with 8 samples.

Results

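The expression of 10 genes of bone morphogenetic protein (BMP) and activin signalling was followed in supporting cells of the neonatal mouse cochlea. They were the BMP-family ligands Bmp2, Bmp4, Bmp7 and Gdf6, the activin subunits Inhba and Inhbb, the activin-binding protein Fst (follistatin), and the targets Id1, Id2 and Id3. The genes were picked by symbol in the NCBIM37 (mm9) annotation, and all 10 were found among the 36536 genes counted. RNA-seq was performed on cells sorted by FACS from cochleas of Lfng-EGFP mice at postnatal day 1 (P1) and day 6 (P6), with 2 replicate libraries for each of 4 groups: P1 GFP+, P1 GFP-, P6 GFP+ and P6 GFP-. The comparisons ask which genes supporting cells express more or less than the rest of the cochlea, and which change as these cells mature over the first postnatal week.

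All 4 groups came from one transgenic strain, B6;FVB-Tg(Lfng-EGFP)HM340Gsat/Mmucd, in which a bacterial artificial chromosome with Lfng regulatory sequence drives EGFP, so the GFP- cells carry the transgene too. The cells were sorted straight after dissociation, with no culture, drug or other treatment. By the study's methods the GFP+ gate took the brightest cells, which are Deiters' cells, outer pillar cells, inner phalangeal cells and border cells but not inner pillar cells, and cells of many cochleas were pooled in each library. Cells of dimmer GFP signal were not collected, so the GFP- cells are a mixture of the remaining unlabelled cells of the dissected duct, and the lateral wall was cleared at P1 but only partly at P6, so age and tissue content cannot be told apart in the GFP- fraction. In these bulk libraries fewer cells of a type and less RNA per cell cannot be told apart either. Nothing states that replicate libraries came from separate litters, so the p-values measure the spread between 2 libraries, which may be in part technical.

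BMP and GDF ligands bind pairs of type I and type II serine/threonine kinase receptors and signal through Smad1, Smad5 and Smad8 (Smad9), whereas activins, dimers of the Inhba or Inhbb subunits, signal through Smad2 and Smad3. Follistatin binds activin and keeps it from its receptors. The Id genes are classical direct targets of BMP signalling: Id proteins lack a DNA-binding region, pair with E proteins and so block basic helix-loop-helix factors such as Atoh1, the factor that hair cells need. In the developing cochlea Bmp4 is known from the outer sulcus side of the duct, and Inhba and Fst from opposing gradients along it.

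The libraries held 17769024 to 67695039 counts on genes, and levels are given as CPM, a gene's share of these counts scaled to a fixed total, or as RPKM, the CPM per kilobase of exon, where genes are compared with each other. All 10 supporting cell markers were higher in GFP+ cells at both ages, at a summed 6184 to 9762 CPM in GFP+ against 283 to 431 CPM in GFP- libraries. Hair cell markers were not depleted from the GFP+ fraction, where 7 of 10 at P1 and 8 of 10 at P6 were also higher. P6 GFP+ replicate 2 stood apart from replicate 1. It held 2588 against 1289 CPM of Schwann cell markers, 265 against 73.3 CPM of endothelial markers and 4399 against 2030 CPM of otic mesenchyme markers, and over 751 genes that were at least 16-fold lower in GFP+ cells at P1 its median was 1.04 higher on the log2 scale. The P6 GFP- libraries held 1493 and 1750 CPM of Schwann cell, 167 and 155 CPM of endothelial and 25414 and 23362 CPM of otic mesenchyme markers. P6 GFP+ replicate 2 was thus above both in Schwann cell and endothelial sums, and below both in mesenchyme. The P6 GFP+ fold changes of the 10 genes are therefore given with and without it, and those of the wider list as values or counts without it. P6 GFP+ replicate 1 was itself above both P1 GFP+ libraries in these lists. It held 2030 CPM of otic mesenchyme markers against 542 and 493 CPM. For Schwann cell markers the sums were 1289 against 581 and 533 CPM, and for endothelial markers 73.3 against 32.4 and 28.2 CPM. Its cartilage and bone sum lay between theirs, and its stria marginal cell sum was lower. The part of these differences in the values without replicate 2 was not tested. Tests are edgeR quasi-likelihood tests with Benjamini-Hochberg adjustment over all genes tested in the comparison, and a gene is called changed at an adjusted p below 0.05. A fit without 1 library leaves 1 library in its group, whose spread is then assumed to be that of the rest. The calls and p-values of such a fit do not measure the spread in that group, so a call gained in it is not firmer evidence.

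**Figure D1:**
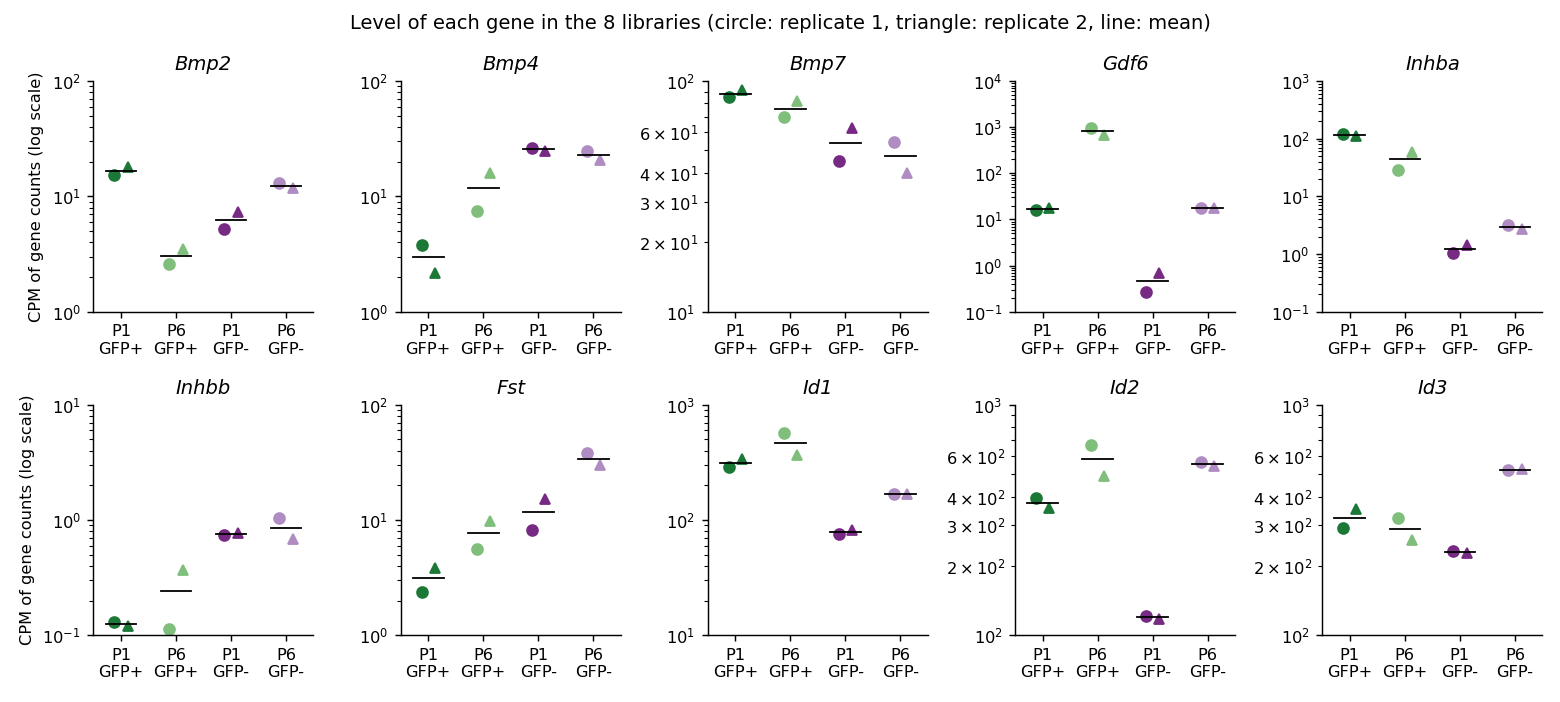
Level of each of the 10 genes in the 8 libraries, in CPM on a log axis, with a circle for replicate 1, a triangle for replicate 2 and a line at their mean in P1 and P6 GFP+ and GFP- cells; each gene has its own vertical scale. Gdf6 goes from 16.4 and 17.7 CPM to 942 and 678 CPM in GFP+ cells, and Inhba lies at 29.1 CPM or above in every GFP+ library and at 3.18 CPM or below in every GFP- library.

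At P1 all 10 genes differed between GFP+ and GFP- cells: 7 were called higher and 3 lower in GFP+ cells, where 25.5% of all genes tested were called higher and 28.1% lower. At P6, 3 were called higher (Gdf6, Inhba, Id1), 3 lower (Bmp2, Fst, Id3) and 4 were not called, beside 15.5% and 17.9% of all genes. From P1 to P6, 2 of the 9 genes tested rose in GFP+ cells (Bmp4, Gdf6) and 2 fell (Bmp2, Inhba), beside 12.1% and 8.31% of all genes. In GFP- cells 7 of 10 rose over the same days and 0 fell, beside 11.3% and 7.87%, and 0 was also the count of falls at an unadjusted p below 0.05 and with DESeq2. The ratio of GFP+ to GFP- cells differed between the ages for 4 genes (Bmp2, Inhba, Id2, Id3), as it did for 6.38% of all genes. Without P6 GFP+ replicate 2 these counts became 4 higher and 5 lower at P6, 5 rising and 2 falling in GFP+ cells, and 5 whose ratio differed between the ages. The shares of all genes called moved as well without that library, to 23% higher and 28.1% lower at P6 and to 27.8% rising and 26.7% falling in GFP+ cells. The study's stricter thresholds, a p and adjusted p below 0.01 and a fold above 4, were also applied to the edgeR test. They are called the study's criteria here, although its agreement of DESeq and Cufflinks and its minimum expression level were not required. By them 3 genes were higher (Gdf6, Inhba, Id1) and 2 lower (Bmp4, Inhbb) at P1, beside 6.46% and 11.4% of all genes. At P6, 2 were higher (Gdf6, Inhba) and 2 lower (Bmp2, Fst), beside 4.88% and 3.1%. In GFP+ cells 1 rose (Gdf6) and 1 fell (Bmp2), beside 1.63% and 0.93%, in GFP- cells 2 rose (Gdf6, Id2) and 0 fell, beside 1.43% and 0.418%, and 1 ratio differed between the ages (Bmp2), beside 1.26%. The comparisons of fractions share their libraries with the comparisons of ages, so their counts are not independent of each other.

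**Figure D2:**
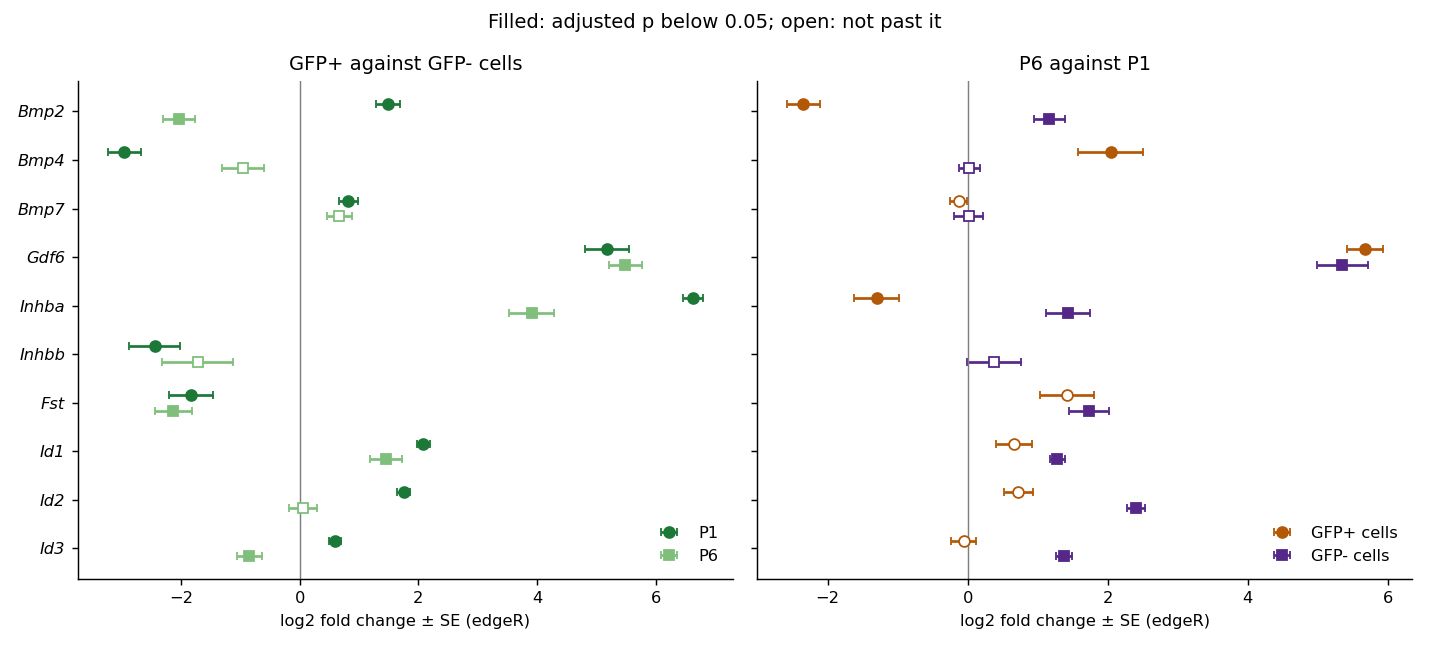
Log2 fold change of each gene for GFP+ against GFP- cells at P1 and P6 (left) and for P6 against P1 in GFP+ and GFP- cells (right), with bars of 1 standard error derived from the edgeR test and filled points where the adjusted p is below 0.05. On the left Bmp2 lies at 1.49 at P1 and -2.03 at P6, Id3 at 0.59 and -0.85, and Gdf6 at 5.18 and 5.49.

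Of the ligands, Gdf6 had the widest range. Gdf6 encodes a BMP-family growth factor known for its part in joint and skull formation, and lies at chr4:9771519-9789492 on the plus strand. In GFP+ cells it was at 16.4 and 17.7 CPM at P1 and at 942 and 678 CPM at P6. In GFP- cells it was at 0.264 and 0.681 CPM at P1, from 10 and 43 counts, and at 17.9 and 18.1 CPM at P6. The P6 GFP- libraries thus held Gdf6 at about the level of the P1 GFP+ libraries, and within each age every GFP+ library was above every GFP- library. Gdf6 was 36.3-fold higher in GFP+ cells at P1 (log2 fold change 5.18, SE 0.37, adjusted p = 0.000123 by edgeR) and 44.9-fold higher at P6 (5.49, SE 0.28, adjusted p = 0.000673). From P1 to P6 it rose 50.9-fold in GFP+ cells (5.67, SE 0.26, adjusted p = 0.00181) and 40.8-fold in GFP- cells (5.35, SE 0.36, adjusted p = 0.000424). Without P6 GFP+ replicate 2 the P6 difference was 5.73 and the rise in GFP+ cells 5.92. Its log2 ratio of GFP+ to GFP- cells changed by -0.31 between the ages, P1 less P6 (SE 0.45, adjusted p = 0.752), and by -0.57 without that library (adjusted p = 0.332), neither of which was called. The GFP- libraries also held supporting cell markers, at a summed 283 and 431 CPM at P1 and 369 and 335 CPM at P6, beside 9347 and 9762 CPM and 8264 and 6184 CPM in GFP+ libraries. The part of supporting cell RNA in the Gdf6 level of the GFP- libraries was not tested. All 4 Gdf6 calls were kept when any library was left out.

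Bmp2 was the 1 gene among the ligands whose order in the fractions turned over with age. Bmp2, a classical inducer of bone and cartilage, lies at chr2:133377895-133388621 on the plus strand. At P1 it was at 15.3 and 17.8 CPM in GFP+ cells and at 5.23 and 7.35 CPM in GFP- cells. At P6 it was at 2.59 and 3.48 CPM in GFP+ cells and at 13.0 and 11.8 CPM in GFP- cells. The fractions did not overlap at either age, with GFP+ cells high at P1 and low at P6. Bmp2 was 2.81-fold higher in GFP+ cells at P1 (log2 fold change 1.49, SE 0.21, adjusted p = 0.00167 by edgeR) and 4.08-fold lower at P6 (-2.03, SE 0.27, adjusted p = 0.00501). The difference between these log2 ratios was 3.53 (SE 0.34, adjusted p = 0.00174) and was called with any library left out. Within GFP+ cells Bmp2 fell 5.08-fold (-2.35, SE 0.24, adjusted p = 0.00558). Without P6 GFP+ replicate 2 the P6 difference was -2.24, the difference between the ratios 3.74 and the fall -2.54. Within GFP- cells it rose 2.25-fold (1.17, SE 0.22, adjusted p = 0.0128), a call that was lost without P6 GFP- replicate 1 (adjusted p = 0.110) or replicate 2 (adjusted p = 0.0572).

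Bmp4 belonged to the GFP- fraction. It lies at chr14:47003195-47010344 on the minus strand, and 89 bases of its exons overlap Gm15217, annotated as a protein-coding gene on the plus strand, whose reads could not be told from its own because the library kit does not mark strand. Bmp4 was at 26.3 and 24.9 CPM in P1 GFP- cells and at 24.7 and 20.7 CPM in P6 GFP- cells. In GFP+ cells it was at 3.80 and 2.17 CPM at P1 and at 7.54 and 15.9 CPM at P6. It was 7.76-fold lower in GFP+ cells at P1 (log2 fold change -2.96, SE 0.28, adjusted p = 0.000357 by edgeR). At P6 the GFP+ libraries were again below the GFP- libraries, but the difference was not called (-0.96, SE 0.35, adjusted p = 0.0888). The higher P6 GFP+ value came from replicate 2, whose endothelial, Schwann cell and mesenchymal marker sums were higher too. With that library left out the P6 difference of Bmp4 was -1.57, and with replicate 1 left out it was -0.49. Bmp4 rose 4.12-fold in GFP+ cells from P1 to P6 (2.04, SE 0.47, adjusted p = 0.0388). That rise was 1.41 on the log2 scale without P6 GFP+ replicate 2, and 1.68 without P1 GFP+ replicate 2, where it was not called. The part of the marker difference in these values was not tested. In GFP- cells the change with age was 0.02 (SE 0.15, adjusted p = 0.942). The P1 ratio of the fractions less the P6 ratio was -1.99 (SE 0.50, adjusted p = 0.0567) and was not called. It was -2.38 without P6 GFP+ replicate 1 and -1.36 without replicate 2.

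Bmp7 varied least of the 4 ligands. Bmp7, known for its role in kidney and eye development, lies at chr2:172693513-172765822 on the minus strand. It was at 85.0 and 91.4 CPM in P1 GFP+, 69.7 and 81.8 CPM in P6 GFP+, 45.0 and 62.3 CPM in P1 GFP- and 54.5 and 40.0 CPM in P6 GFP- cells. Every GFP+ library was above every GFP- library. Bmp7 was 1.76-fold higher in GFP+ cells at P1 (log2 fold change 0.82, SE 0.16, adjusted p = 0.00624 by edgeR). The P6 difference was 0.67 (SE 0.21, adjusted p = 0.0532) and was not called, but DESeq2 called it (0.69, adjusted p = 0.0456). It was 0.81 without P6 GFP+ replicate 1 and 0.58 without replicate 2. The change with age was -0.13 in GFP+ cells (SE 0.12, adjusted p = 0.473), or -0.21 without P6 GFP+ replicate 2 (adjusted p = 0.0898), and 0.01 in GFP- cells (SE 0.21, adjusted p = 0.974), and none of these was called.

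Set against each other per length of exon, the 4 ligands changed places in GFP+ cells between the ages. At P1 Bmp7 made up 66.5% and 67.4% of their summed RPKM in the 2 GFP+ libraries, and Gdf6 14.6% and 14.8%. At P6 Gdf6 made up 92.6% and 87.1%, and Bmp7 6.02% and 9.24%. The sum itself went from 31.8 and 33.7 RPKM to 288 and 220 RPKM. In GFP- cells the sum stayed between 24.6 and 33.4 RPKM, with Bmp7 and Bmp4 ahead at both ages and Gdf6 going from 0.304% and 0.666% to 15.2% and 18.5%.

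The activin subunit Inhba had the largest difference between the fractions of the 10 genes at P1. Inhba encodes the βA subunit, 2 copies of which form activin A, and lies at chr13:16103684-16119044 on the plus strand. At P1 it was at 120.1 and 112 CPM in GFP+ cells and at 1.03 and 1.43 CPM in GFP- cells, which is 99.1-fold higher in GFP+ cells (log2 fold change 6.63, SE 0.17, adjusted p = 9.99e-06 by edgeR). At P6 it was at 29.1 and 59.5 CPM in GFP+ cells and at 3.18 and 2.67 CPM in GFP- cells, which is 15.0-fold higher (3.91, SE 0.38, adjusted p = 0.00223). The gap narrowed from both sides, and the difference between the log2 ratios was 2.74 (SE 0.45, adjusted p = 0.0121). Inhba fell 2.46-fold in GFP+ cells (-1.30, SE 0.32, adjusted p = 0.0463) and rose 2.70-fold in GFP- cells (1.43, SE 0.31, adjusted p = 0.0211). Without P6 GFP+ replicate 2 the P6 difference was 3.33 and the difference between the ratios 3.31. The fall was -1.87 without that library, and -1.38 without P1 GFP+ replicate 2, where it was not called. The rise in GFP- cells was not called without P6 GFP- replicate 1 (adjusted p = 0.156) or replicate 2 (adjusted p = 0.0724). The difference between the ratios was not called without P1 GFP+ replicate 1 (adjusted p = 0.0571), P6 GFP- replicate 1 (adjusted p = 0.0683) or P6 GFP- replicate 2 (adjusted p = 0.0520).

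The RefSeq promoter table (GRCm38.p6) held 5 of the 10 genes: Bmp4, Inhba, Inhbb, Id2 and Id3. Bmp2, Bmp7, Gdf6, Fst and Id1 were not among them. The 250 bases before the start were placed on NCBIM37 by exact match and searched on both strands for GGCGCC and CAGAC, letters of BMP and activin Smad sites, and for TATAAA and CCAAT. These are in 9.59%, 42.2%, 12.4% and 33.8% of the 32851 promoters of the table. The windows of Inhba and Bmp4 are shown because these genes lie at opposite ends of the P1 comparison, high and low in GFP+ cells, and the Id2 window because its gene lost its difference between the fractions by P6. Capitals mark the matches.
Inhba, chr13:16103434-16103683, plus strand: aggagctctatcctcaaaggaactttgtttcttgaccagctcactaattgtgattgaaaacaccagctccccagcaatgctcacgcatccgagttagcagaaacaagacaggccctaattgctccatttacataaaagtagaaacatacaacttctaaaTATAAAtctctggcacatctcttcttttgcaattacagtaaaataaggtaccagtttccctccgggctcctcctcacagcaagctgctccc
Bmp4, chr14:47010345-47010594, minus strand: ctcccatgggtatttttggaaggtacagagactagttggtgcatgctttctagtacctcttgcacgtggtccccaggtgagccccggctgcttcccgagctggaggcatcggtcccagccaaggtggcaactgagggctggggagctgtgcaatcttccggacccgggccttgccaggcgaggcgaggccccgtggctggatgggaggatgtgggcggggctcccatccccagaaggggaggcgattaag
Id2, chr12:25780958-25781207, minus strand: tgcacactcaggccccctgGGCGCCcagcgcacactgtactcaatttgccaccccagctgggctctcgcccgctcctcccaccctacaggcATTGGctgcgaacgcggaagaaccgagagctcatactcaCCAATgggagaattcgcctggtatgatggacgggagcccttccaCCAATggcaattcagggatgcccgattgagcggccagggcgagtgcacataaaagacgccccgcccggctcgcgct
The Inhba window is 43.2% G and C and holds TATAAA, starting 91 bases before the gene's start. The Id2 window is 62.8% G and C and holds GGCGCC, starting 231 bases before the start, and CCAAT at 120 and 76 bases and, on the other strand, at 159 bases. The Bmp4 window is 63.2% G and C and holds none of the 4 runs of letters, and the Inhbb window, which is not shown, holds none either. The Id3 window, also not shown, holds CAGAC on each strand, starting 167 and 68 bases before the RefSeq start, and none of the others. This window, at chr4:135699487-135699736, lies past the Id3 start of the NCBIM37 annotation and overlaps an Id3 exon there, so by that annotation it is not upstream sequence.

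Inhbb was scarce in every library and lower in GFP+ cells. Inhbb, the βB subunit of activin B, lies at chr1:121312042-121318825 on the minus strand. It had 6 and 3 counts in P1 GFP+ and 2 and 11 counts in P6 GFP+ libraries, against 28 and 49 counts in P1 GFP- and 64 and 46 counts in P6 GFP- libraries. In CPM these are 0.131 and 0.121, 0.113 and 0.368, 0.739 and 0.776, and 1.04 and 0.680. All GFP+ libraries were below all GFP- libraries, at levels that rest on few reads. It was 5.44-fold lower in GFP+ cells at P1 (log2 fold change -2.44, SE 0.43, adjusted p = 0.00472 by edgeR), a call that was lost without P1 GFP+ replicate 1 (adjusted p = 0.0592) or replicate 2 (adjusted p = 0.0504). The P6 difference of -1.72 (SE 0.60, adjusted p = 0.0777) was not called, and was -2.88 without P6 GFP+ replicate 2. Inhbb did not pass the filter on low counts in the comparison of GFP+ cells between ages, and its change in GFP- cells was 0.37 (SE 0.39, adjusted p = 0.535).

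Between the fractions Fst, the activin antagonist, ran opposite to Inhba, but with age both were called higher in GFP- cells. It lies at chr13:115242470-115249159 on the minus strand. In GFP+ cells Fst was at 2.38 and 3.86 CPM at P1 and at 5.63 and 9.91 CPM at P6, and in GFP- cells at 8.18 and 15.1 CPM at P1 and at 37.9 and 29.9 CPM at P6. The fractions did not overlap at either age, and the later libraries were the higher ones in each fraction. Fst was 3.55-fold lower in GFP+ cells at P1 (log2 fold change -1.83, SE 0.37, adjusted p = 0.00776 by edgeR), which was not called without P1 GFP+ replicate 1 (-1.51, adjusted p = 0.0538). It was 4.37-fold lower at P6 (-2.13, SE 0.31, adjusted p = 0.00639), and the difference was -2.57 without P6 GFP+ replicate 2. From P1 to P6 Fst rose 3.32-fold in GFP- cells (1.73, SE 0.29, adjusted p = 0.00856), but was not called without P6 GFP- replicate 1 (adjusted p = 0.0632). The difference in GFP+ cells was 1.42 (SE 0.39, adjusted p = 0.0580) and was not called, but DESeq2 called it (1.43, adjusted p = 0.00943). It was 1.78 without P6 GFP+ replicate 1 and 1.02 without replicate 2. The ratio of Inhba to Fst RPKM was 68.5 and 39.4 in P1 GFP+ and 7.02 and 8.15 in P6 GFP+ libraries, and lay between 0.114 and 0.171 in all 4 GFP- libraries. Inhba RNA thus exceeded Fst RNA in every GFP+ library and was below it in every GFP- library.

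The Id genes had the highest levels per length of the 10 in all groups, except that Gdf6 passed Id3 in P6 GFP+ cells. Id1 lies at chr2:152561987-152563146 on the plus strand. It was at 291 and 336 CPM in P1 GFP+ and at 75.8 and 82.7 CPM in P1 GFP- cells, 4.24-fold higher in GFP+ cells (log2 fold change 2.09, SE 0.10, adjusted p = 3.45e-05 by edgeR). At P6 it was at 564 and 364 CPM in GFP+ and at 168 and 169 CPM in GFP- cells, 2.75-fold higher (1.46, SE 0.27, adjusted p = 0.0122), or 1.76 on the log2 scale without P6 GFP+ replicate 2. GFP+ libraries were above GFP- libraries at both ages, although the P6 call was lost without P6 GFP- replicate 1 (adjusted p = 0.0654) or replicate 2 (adjusted p = 0.0870). Id1 rose 2.43-fold in GFP- cells (1.28, SE 0.10, adjusted p = 0.000779). In GFP+ cells the difference with age was 0.67 (SE 0.25, adjusted p = 0.122) and was not called, with the P6 libraries above the P1 libraries but far apart. DESeq2 called it (0.67, adjusted p = 0.0448). It was 0.28 without P6 GFP+ replicate 1 and 0.98 without replicate 2. The P1 ratio less the P6 ratio was 0.64 (SE 0.31, adjusted p = 0.281) and was not called. It was 1.03 without P6 GFP+ replicate 1 and 0.34 without replicate 2.

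Id2 was higher in GFP+ cells at P1 and no longer differed detectably at P6. It lies at chr12:25778666-25780957 on the minus strand, and 294 bases of its exons have a 95.6% identical copy on chromosome X, so some of its reads may have been set aside as aligning in more than 1 place. At P1 it was at 394 and 357 CPM in GFP+ and at 122 and 118 CPM in GFP- cells, 3.37-fold higher in GFP+ cells (log2 fold change 1.75, SE 0.11, adjusted p = 6.92e-05 by edgeR). At P6 it was at 668 and 493 CPM in GFP+ and at 566 and 543 CPM in GFP- cells. The P6 groups overlapped, with a log2 fold change of 0.06 (SE 0.24, adjusted p = 0.863), or 0.29 without P6 GFP+ replicate 2 (adjusted p = 0.218). In GFP- cells Id2 rose 5.29-fold (2.40, SE 0.12, adjusted p = 0.000131), the largest rise of the 3 Id genes there. In GFP+ cells the difference with age was 0.72 (SE 0.21, adjusted p = 0.0675) and was not called, but DESeq2 called it (0.73, adjusted p = 0.00819). It was 0.45 without P6 GFP+ replicate 1 and 0.95 without replicate 2. The log2 ratio of the fractions was 1.70 higher at P1 than at P6 (SE 0.26, adjusted p = 0.00979), and 1.48 higher without P6 GFP+ replicate 2. That difference was not called without P1 GFP+ replicate 1 (adjusted p = 0.0623) or P6 GFP- replicate 1 (adjusted p = 0.0540).

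Id3 changed sides. It lies at chr4:135699412-135701670 on the plus strand. At P1 it was at 293 and 354 CPM in GFP+ and at 232 and 227 CPM in GFP- cells, 1.51-fold higher in GFP+ cells (log2 fold change 0.59, SE 0.11, adjusted p = 0.00487 by edgeR). At P6 it was at 322 and 259 CPM in GFP+ and at 519 and 524 CPM in GFP- cells, 1.80-fold lower in GFP+ cells (-0.85, SE 0.21, adjusted p = 0.0283), or -0.67 on the log2 scale without P6 GFP+ replicate 2. The P6 call was lost without P6 GFP- replicate 1 (adjusted p = 0.186) or replicate 2 (adjusted p = 0.163). The P1 and P6 GFP+ libraries overlapped, with a difference of -0.06 (SE 0.18, adjusted p = 0.838), or 0.12 without P6 GFP+ replicate 2 (adjusted p = 0.351), while Id3 rose 2.59-fold in GFP- cells (1.37, SE 0.12, adjusted p = 0.000853). The log2 ratio of the fractions was 1.46 higher at P1 than at P6 (SE 0.23, adjusted p = 0.0112), and 1.29 higher without P6 GFP+ replicate 2. It was not called without P1 GFP+ replicate 2 (adjusted p = 0.0818), P6 GFP- replicate 1 (adjusted p = 0.0581) or P6 GFP- replicate 2 (adjusted p = 0.0540).

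Summed over the 3 Id genes, the level per length was 725 and 768 RPKM in P1 GFP+, 291 and 291 RPKM in P1 GFP-, 1192 and 846 RPKM in P6 GFP+ and 880 and 866 RPKM in P6 GFP- libraries. The GFP+ and GFP- sums were well apart at P1 and overlapped at P6. Id3 made up 22.6% and 25.7% of the sum in P1 GFP+ and 15.1% and 17.1% in P6 GFP+ libraries, against 44.6% and 43.6% in P1 GFP- and 32.9% and 33.8% in P6 GFP- libraries. All 3 Id genes rose in the GFP- fraction with age, where 11.3% of all genes rose and 7.87% fell. There 5 of 9 otic mesenchyme, 7 of 8 cartilage and bone, 4 of 6 macrophage, 4 of 7 endothelial, 4 of 7 Schwann cell and 4 of 5 melanocyte markers rose as well. In the cartilage and bone, Schwann cell and melanocyte lists 1 marker each fell. Of 7 neuron and of 10 hair cell markers 0 rose and 3 fell, and of 10 supporting cell markers 1 rose and 2 fell. Of the stria marginal cell and red blood cell markers 0 were called. The part of those cells in the rise of the Id genes was not tested.

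**Figure D3:**
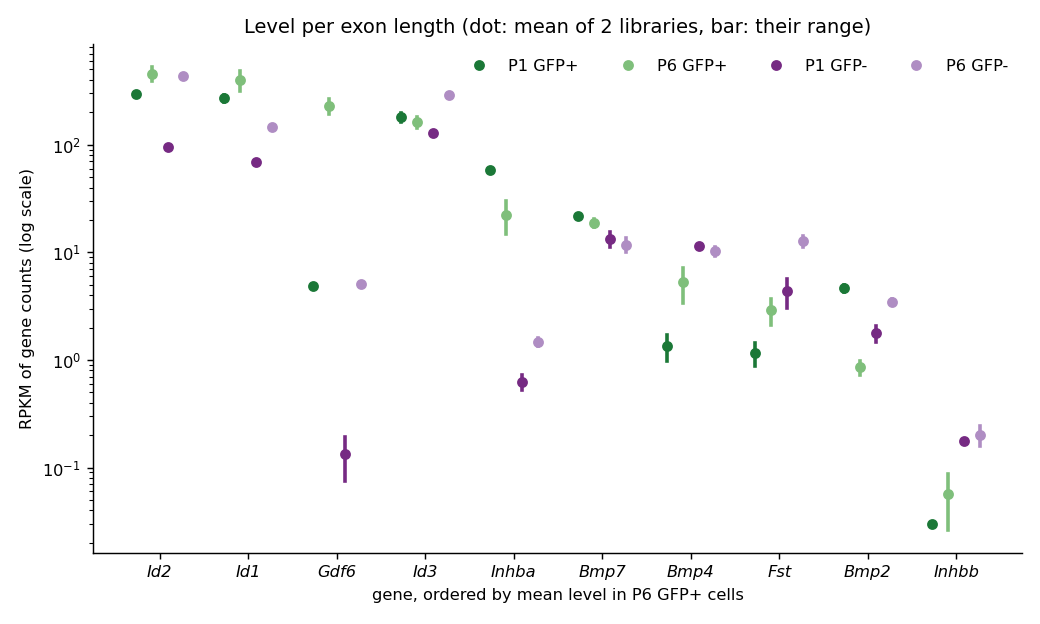
Mean level per length of the 10 genes in each of the 4 groups, in RPKM on a log axis, with 1 dot per group and bars from the lower to the higher of the 2 libraries, and the genes ordered by their P6 GFP+ level. The Id genes lead in every group except that Gdf6, at 229 RPKM, passes Id3, at 162 RPKM, in P6 GFP+ cells.

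The order of the levels per length differed between the groups. In P1 GFP+ cells it ran from Id2 (295 ± 21 RPKM, SD, n = 2) over Id1 (270.2 ± 28), Id3 (181 ± 24), Inhba (58.6 ± 2.9), Bmp7 (21.9 ± 1.1), Gdf6 (4.82 ± 0.26), Bmp2 (4.66 ± 0.49), Bmp4 (1.34 ± 0.52) and Fst (1.16 ± 0.39) to Inhbb (0.0295 ± 0.0017). The replicates of Id2 and Id1, of Gdf6 and Bmp2, and of Bmp4 and Fst overlapped. In P6 GFP+ cells Gdf6 had moved to the third place (229 ± 53) and Bmp2 near the end (0.854 ± 0.18), and Id2 and Id1, Inhba and Bmp7, and Bmp4 and Fst overlapped. In P1 GFP- cells Id3 led (128 ± 1.8), Gdf6 came last (0.134 ± 0.084), and Bmp7 and Bmp4, and Inhbb and Gdf6, overlapped. In P6 GFP- cells Id2 led (437 ± 13), Fst followed the Id genes (12.6 ± 2.1), and Fst and Bmp7, and Bmp7 and Bmp4, overlapped. Id2 in P6 GFP+ cells was the gene with rank 54 of 23203 genes with counts by mean RPKM, Id1 rank 72 and Gdf6 rank 151, whereas Gdf6 had rank 9263 of 23738 in P1 GFP+ cells.

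A wider list of 69 further genes of the pathway was read for how the 10 genes stood within it. At P1, 11 of the 54 tested were called higher in GFP+ cells and 25 lower, beside 25.5% and 28.1% of all genes, with a median log2 fold change of -0.45 against 0.01 over all genes. At P6, 11 of 58 were higher and 24 lower, beside 15.5% and 17.9%, with a median of -0.69 against -0.02. The P6 counts were 13 of 61 higher and 33 lower without P6 GFP+ replicate 2, beside 23% and 28.1%. Among 21 genes grouped here as antagonists beside Fst, which need not all oppose BMP signals, 1 was higher and 9 lower at each age. Of these 18 were tested at P1 and 19 at P6, where 28.1% and 17.9% of all genes were lower. At P6, 12 of 19 were lower without P6 GFP+ replicate 2, beside 28.1%. By the study's criteria, an adjusted p below 0.01 and a fold above 4, the genes of this group lower at P1 included Chrd, Nbl1, Cer1, Sostdc1, Bmper and Kcp. Their log2 fold changes ran from -2.02 (Chrd) to -3.95 (Nbl1). At P6 the genes lower were Chrd (-2.08), Nog (-2.58) and Grem1 (-2.59), with -2.34, -3.14 and -2.51 without P6 GFP+ replicate 2.

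**Figure D4:**
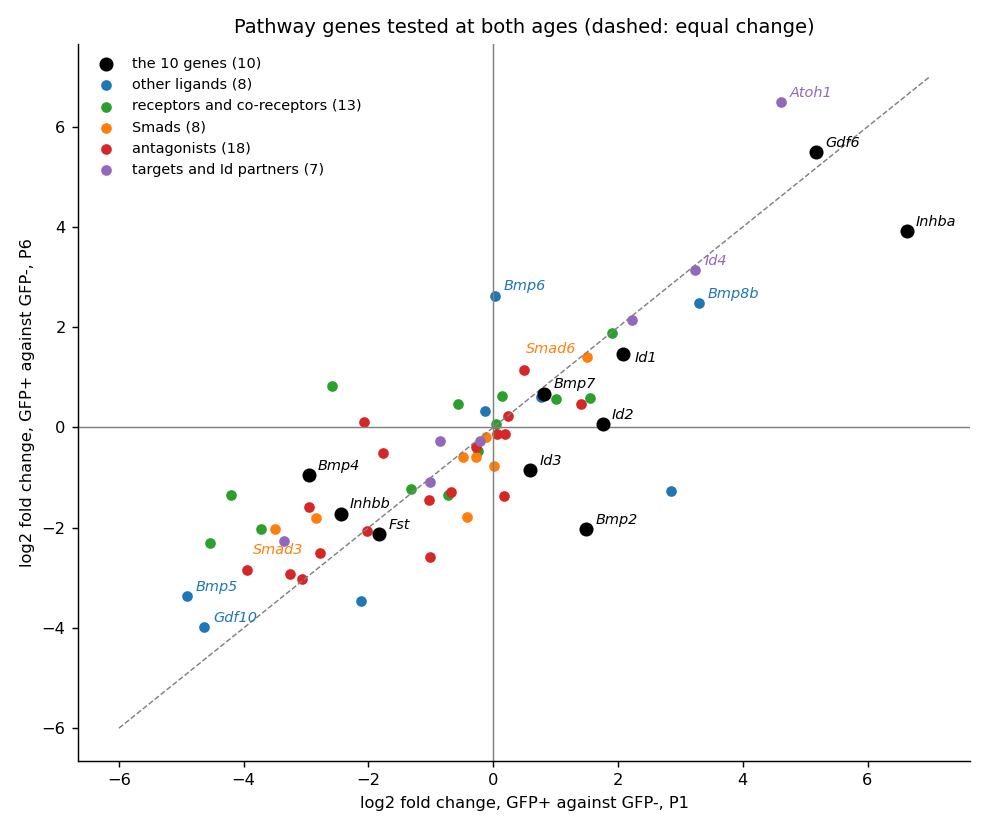
Log2 fold change of GFP+ against GFP- cells at P1 (horizontal) and at P6 (vertical) for the pathway genes tested at both ages, with the 10 genes as large black points and the dashed line where both ages are equal. Bmp6 lies at 0.03 at P1 and 2.62 at P6, Bmp2 below the line at 1.49 and -2.03, and the height of the Atoh1 point is set by the prior count of the fit, since its P6 GFP- libraries hold 1 and 0 counts.

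Among the other ligands, Bmp6 also rose with age in both fractions. Bmp6 was at 5.83 and 4.98 CPM in P1 GFP+ and at 276 and 212 CPM in P6 GFP+ cells, and at 4.62 and 6.78 CPM in P1 GFP- and 43.6 and 35.4 CPM in P6 GFP- cells. It rose by 5.58 on the log2 scale in GFP+ cells (SE 0.23, adjusted p = 0.00178 by edgeR) and by 2.98 in GFP- cells (SE 0.23, adjusted p = 0.000590). Its ratio of the fractions differed between the ages (-2.58, SE 0.34, adjusted p = 0.00526). Its rise in GFP+ cells was 5.78 and the difference of the ratios -2.78 without P6 GFP+ replicate 2. Bmp8b was higher in GFP+ cells at both ages (3.29 at P1, adjusted p = 0.000110, and 2.48 at P6, adjusted p = 0.00372). Bmp3, like Bmp2, was higher in GFP+ cells at P1 (2.86, SE 0.30, adjusted p = 0.000581) and lower at P6 (-1.26, SE 0.30, adjusted p = 0.0258), and its ratio differed between the ages (4.13, SE 0.45, adjusted p = 0.00270). Without that library the P6 values were 2.39 for Bmp8b and -1.60 for Bmp3. Bmp5, Gdf10 and Bmp15 were lower in GFP+ cells at P1 (-4.92, -4.63 and -2.11) and at P6 (-3.37, -3.98 and -3.46). In P6 GFP+ cells Bmp5 was at 3.26 CPM in replicate 1 and at 25.3 CPM in replicate 2, and Gdf10 at 12.9 and 45.2 CPM. Without replicate 2 the P6 values of Bmp5, Gdf10 and Bmp15 were -5.48, -5.12 and -4.06.

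Of 14 receptors and co-receptors, 3 were higher and 7 lower in GFP+ cells at P1, of 13 tested, beside 25.5% and 28.1% of all genes, and 3 and 3 of 13 at P6, beside 15.5% and 17.9%. Of 14 tested without P6 GFP+ replicate 2, 4 were higher and 6 lower at P6, beside 23% and 28.1%. The co-receptors Eng (-4.53) and Tgfbr3 (-3.73) and the endothelial type I receptor Acvrl1 (-4.20) were among those lower at P1 by the study's criteria. In P6 GFP+ cells Acvrl1 was at 5.06 CPM in replicate 1 and at 20.4 CPM in replicate 2, beside the endothelial marker sums of 73.3 and 265 CPM. The part of endothelial RNA in the Acvrl1 values was not tested. Of 8 Smads, 1 was higher and 3 lower at P1, beside the same shares of all genes, and 1 and 5 at P6, or 1 and 6 without P6 GFP+ replicate 2. Smad3, which carries activin signals, was lower in GFP+ cells at P1 (12.8 and 12.7 against 171 and 141 CPM; -3.50, SE 0.13, adjusted p = 1.67e-05 by edgeR) and at P6 (-2.02, SE 0.27, adjusted p = 0.00503), or -2.42 without P6 GFP+ replicate 2. Smad5, which carries BMP signals, was lower at P1 too (-2.84, adjusted p = 3.03e-05 by edgeR). At P6 it was also lower (-1.81, adjusted p = 0.0103), or -2.33 without that library. The inhibitory Smad6 was the Smad that was higher at both ages (1.51 and 1.41, or 1.63 at P6 without that library). Smad7, also inhibitory, went the other way: it was not called at P1 (0.01) and was called lower at P6 (-0.78, with and without that library).

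Id4, the remaining Id gene, kept its place in the GFP+ fraction at both ages. It was at 205 and 187 CPM in P1 GFP+ and 279 and 216 CPM in P6 GFP+ cells, against 19.0 and 25.6 CPM in P1 GFP- and 28.3 and 27.9 CPM in P6 GFP- cells. Its log2 fold change was 3.24 at P1 (SE 0.17, adjusted p = 3.97e-05 by edgeR) and 3.13 at P6 (SE 0.21, adjusted p = 0.000947), or 3.33 without P6 GFP+ replicate 2. Atoh1, whose protein the Id proteins oppose, was at 7.62 and 9.48 CPM in P1 GFP+ cells and at 0.844 and 1.04 CPM in P6 GFP+ cells, and so fell by 3.07 on the log2 scale (SE 0.29, adjusted p = 0.00457), with a change of -3.20 without that library. At P1 Atoh1 was higher in GFP+ than in GFP- cells (4.61, SE 0.26, adjusted p = 5.61e-05), and it is itself among the hair cell markers counted as higher there. At P6 it was called higher as well (6.48, adjusted p = 0.00410 by edgeR, or 6.38 without that library). The P6 GFP- libraries held 1 and 0 counts of it, so the size of that difference is not firm. Atoh8 was lower in GFP+ cells at P1 (-3.35) and P6 (-2.27, or -2.32 without that library). Dlx5, a BMP-responsive homeobox gene of bone and craniofacial tissue, went from 0.158 and 0.761 CPM in P1 GFP- cells to 46.8 and 45.9 CPM in P6 GFP- cells.

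From P1 to P6, 16 of 54 further pathway genes were called higher in GFP+ cells and 3 lower, beside 12.1% and 8.31% of all genes, and 6 of 18 antagonists were among the higher ones. Without P6 GFP+ replicate 2, 22 of 53 were higher and 17 lower, beside 27.8% and 26.7%, with 7 of 17 antagonists higher and 4 lower. Markers of other cells rose in GFP+ cells over the same days, 7 of 9 for otic mesenchyme, 6 of 8 for cartilage and bone, 5 of 7 for Schwann cells, 4 of 7 for endothelium and 5 of 6 for macrophages. In other lists fewer rose, 3 of 5 red blood cell, 2 of 5 melanocyte, 2 of 7 neuron and 0 of 4 stria marginal cell markers. Of 10 hair cell markers 1 rose and 2 fell, and of 10 supporting cell markers 0 rose and 3 fell. These marker counts include P6 GFP+ replicate 2. Nbl1, an antagonist at 264 and 236 CPM in P1 GFP- cells, was at 13.3 and 17.0 CPM in P1 GFP+ cells and at 30.4 and 84.1 CPM in P6 GFP+ replicates 1 and 2. Bmper was at 2.27 and 1.97 CPM in P1 GFP+ cells and at 5.18 and 17.3 CPM in the same P6 libraries. The part of those other cells in the rise of pathway genes in GFP+ cells was not tested.

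In GFP- cells 20 of 60 further pathway genes were called higher at P6 and 7 lower, beside 11.3% and 7.87% of all genes. Of 19 antagonists 8 rose, among them Bmper (2.14) and Grem1 (3.11), and 3 fell, and 6 of 10 other ligands rose, among them Bmp3 (2.98), Gdf10 (2.50) and Bmp15 (2.64).

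The genes whose levels over the 8 libraries were most like those of each member were found by Pearson correlation of log2(CPM + 0.5) among 19232 genes, as a description. The libraries fall into 4 groups, so any gene with the same order of groups scores high. For Gdf6 they were Mgll and St6galnac2 (both r = 0.998), for Inhba Sox6 (r = 0.997) and Fndc7 (r = 0.996), and for Bmp2 Spcs3 (r = 0.991) and Hmgcll1 (r = 0.981). For Bmp4 they were Ramp2 (r = 0.993) and Gjc3 (r = 0.992), and for Fst Acta2 (r = 0.990) and Shisa3 (r = 0.989). For Id1 they were 5430407P10Rik and Atp6v0e (both r = 0.991), and for Id2 Trib1 (r = 0.990) and Pla2g16 (r = 0.989). Bmp7 and Id3 had the loosest matches, Cnga2 and Ccdc103 (both r = 0.971) for Bmp7 and S1pr5 (r = 0.964) and Gpr160 (r = 0.953) for Id3.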

How the data were processed

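RNA-seq counts of 8 libraries were used. Per the labels and methods, the authors aligned paired reads to mm9 (NCBIM37, Ensembl genes) with TopHat (version 1.4.0 in the submitters' processing notes) and deposited raw counts per gene from HTSeq, not normalized. The counting mode and strand setting were not given in the sources used here. Rows naming no gene (23.8% to 35.3% of each library) were left out. The study's own comparisons were not used. Groups followed the labels.

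CPM used totals over genes, and RPKM the union of exons (NCBIM37 annotation, which held 34391 of 36536 genes). Each comparison was fitted on its 4 libraries, and the difference of ratios on 8, with edgeR 4.0.16 in R 4.3.3: filterByExpr (minimum count 10, total 15), TMM, quasi-likelihood test, Benjamini-Hochberg adjustment, called below 0.05. Each SE is the absolute log2 fold change over the square root of the F statistic of the edgeR test, which gives no SE itself. Library totals in place of TMM moved the median of all genes by -0.10 at P1 and by -0.19 between the GFP- ages (log2). The study's criteria (p and adjusted p below 0.01, fold above 4) were a second rule, applied to the edgeR test. The study's agreement of DESeq and Cufflinks and its minimum expression level were left out. Figures were drawn with matplotlib 3.10.9 in Python 3.11.15. The fit was also run on counts simulated with the same dispersion for every gene and library. These held no pair that differed like the P6 GFP+ replicates, so that run does not bear on such a gap.

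The members, gene lists and tests were chosen with earlier results of these data known. Beyond the 10 genes, those of the wider list were named by rule where they met the study's criteria in 1 comparison of groups with at least 1 CPM in the higher group. Smad6, Smad7 and markers shown as sums were chosen after their values were seen. 1 gene that met the rule is not reported here. Pattern likeness used the 2 genes of highest r per gene of at least 1 CPM. Alternatives were DESeq2 1.42.0 (test and size factors), library totals, no filter, all 8 libraries in the fit, stricter thresholds, a replicate block and each library left out. A crossed replicate block and the wider list without P6 GFP+ replicate 2 were added after seeing the data. No protein sequences were used here.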

Additional observations from a re-analysis of the deposited data

Results flagged for a closer look

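The ratio of GFP+ to GFP- cells differed between P1 and P6 for 4 of the 10 genes by the edgeR test of the difference itself over 8 libraries. On the log2 scale the ratio at P1 exceeded that at P6 by 3.53 for Bmp2 (adjusted p = 0.00174), 2.74 for Inhba (adjusted p = 0.0121), 1.70 for Id2 (adjusted p = 0.00979) and 1.46 for Id3 (adjusted p = 0.0112). For Bmp2 and Id3 the sign of the ratio turned over, whereas Inhba was higher in GFP+ cells at both ages and the Id2 fractions overlapped at P6. No group held enough libraries to look for a single library far from the rest.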

How the results depend on the processing

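Under the study's criteria the genes called higher in GFP+ cells at P1 went from 7 to 3, those rising in GFP+ cells from 2 to 1 and falling from 2 to 1, those rising in GFP- cells from 7 to 2, and those whose ratio differed between the ages from 4 to 1. At an adjusted p below 0.01, 1 rose and 1 fell in GFP+ cells and 2 ratios differed. With no filter on low counts 5 were lower at P6 and 5 rose in GFP+ cells, where DESeq2 called 5 and the fit on all 8 libraries 4. The replicate numbers only share a number (correlations of the replicate differences 0.03 at P1, 0.06 at P6, -0.14 between GFP+ ages and -0.32 between GFP- ages). The replicate block called 4 rising in GFP+ cells, with Fst (adjusted p = 0.0319) and Id2 (adjusted p = 0.0478) added, and lost Inhba in GFP- cells (adjusted p = 0.0541). The crossed pairing, chosen after seeing the data, gave 2 rising and 2 falling GFP+ genes, and 7 rising and 0 falling GFP- genes. Leaving out 1 library, with the lone library of its group assumed to vary like the others, gave 1 to 3 genes lower at P1, 2 to 4 higher and 2 to 5 lower at P6, 1 to 5 rising and 1 to 2 falling in GFP+ cells, 4 to 7 rising in GFP- cells and 1 to 6 differing ratios. The fewest differing ratios came without P6 GFP- replicate 1 and the most without P6 GFP+ replicate 1. Of the values for single genes under the alternatives, 468 kept direction and side of the threshold, 23 lost and 32 gained a call, and the 16 that turned direction were none of them called. With library totals the GFP- change with age was -0.17 for Bmp4 and -0.18 for Bmp7. The others turned when 1 library was left out, which gave from -0.15 to 0.29 for the P6 Id2 difference, -0.26 to 0.12 for the GFP+ Id3 change, -0.14 to 0.18 for Bmp4 and -0.26 to 0.25 for Bmp7 in GFP- cells, and, for the ratio at P1 less that at P6, -0.11 to 0.41 for Bmp7, -0.78 to 0.53 for Gdf6, -1.17 to 0.46 for Inhbb and -0.091 to 0.75 for Fst. The depth limits Inhbb most, with 2 to 11 counts in GFP+ libraries, and the Gdf6 level in P1 GFP- cells.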

Other observations

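In the P6 GFP+ group the 2 libraries differed in opposite directions over the 10 genes. Replicate 2 held 2.05 times the CPM of replicate 1 for Inhba, 2.11 times for Bmp4, 3.27 times for Inhbb and 1.76 times for Fst, and 0.644 times for Id1 and 0.719 times for Gdf6. Bmp4, Inhbb and Fst were lower in GFP+ than in GFP- cells at P1, and Inhba was higher.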
